A study of Homo sapiens with 2 samples.

Results

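The 10 circadian clock genes described here were measured in A549, an established line of human lung adenocarcinoma cells: the activators CLOCK and ARNTL, the repressors PER1, PER2, PER3, CRY1 and CRY2, the nuclear receptors NR1D1 and NR1D2, and the output factor DBP. They were chosen by name and make up 10 of the 18786 gene symbols with a value in both RNA sequencing libraries of the series. The vector library came from A549 cells stably transduced with a retroviral vector, and the ATOH8 library from A549 cells stably transduced with retroviral ATOH8, a basic helix-loop-helix transcription factor. Both were grown in DMEM with fetal bovine serum and antibiotics, so serum was shared by both groups. There was 1 library per group. The labels give neither the promoter driving ATOH8 nor whether the transduced cells were a pool or a clone, and they give no harvest time and no synchronisation step. Each value below is therefore a single sampling of genes known to oscillate. Every difference compares 2 libraries, and none is given with a replicate error or a p-value.

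In the molecular clock, CLOCK and ARNTL (also called BMAL1) pair and bind E-box sequences in the PER, CRY, NR1D and DBP genes. PER and CRY proteins return to the nucleus and inhibit the CLOCK-ARNTL pair, and NR1D1 and NR1D2 (REV-ERB alpha and beta) repress ARNTL and CLOCK through ROR elements, where ROR receptors activate. DBP binds D-box sequences and passes the rhythm on to other genes, among them PER genes. The loop runs in most tissues, lung epithelium included, and in cultured cells.

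The motifs of this loop were looked for in the RefSeq promoter windows of the 10 genes (GRCh38.p14, 250 bases before to 50 after the start, both strands), all of which were matched, ARNTL under the symbol BMAL1. The stretches shown hold an E-box, its CACGTT relative or a D-box before the start, the motifs through which the loop is known to act, with the motif in capitals, 5′ to 3′ on the gene's strand. The canonical E-box CACGTG stood in 1 of the 10 windows, that of PER1, and in 7.26% of 35116 windows of the same length. Its relative CACGTT stood in those of PER2, CRY1 and NR1D1, and in 5.34% of all windows. A D-box, TTATGTAA, stood in that of PER3 and in 0.886% of all windows. A second D-box form, TTACGTAA (0.125% of all windows), lay across the start of PER2, and a ROR element, TAGGTCA (1.85% of all windows), lay downstream of the start of ARNTL. A cAMP element, TGACGTCA, was in none of the 10 and in 1.85% of all windows. The stretches of CRY1 and NR1D1 were added after the windows had been searched. They hold the motif on the other strand, as AACGTG. That of CRY1 lies within an exon annotated in GENCODE 29.
PER1, E-box 173 bases before the start, chr17:8152545-8152604, minus strand: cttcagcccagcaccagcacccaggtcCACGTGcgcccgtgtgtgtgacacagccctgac
PER2, CACGTT 197 bases before the start, chr2:238288775-238288834, minus strand: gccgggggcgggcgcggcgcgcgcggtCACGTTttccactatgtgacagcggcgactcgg
PER3, D-box 177 bases before the start, chr1:7784088-7784147, plus strand: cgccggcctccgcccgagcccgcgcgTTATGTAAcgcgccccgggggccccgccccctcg
CRY1, AACGTG 89 bases before the start, chr12:107093621-107093650, minus strand: acacacttcagaAACGTGaggtgccggtgg
NR1D1, AACGTG 168 bases before the start, chr17:40100740-40100769, minus strand: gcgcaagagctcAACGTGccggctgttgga
The window of DBP held none of the motifs named so far, and neither did those of CLOCK, CRY2 and NR1D2. The looser bHLH E-box CANNTG, which contains CACGTG and which many bHLH factors can bind, was in 6 of the 10 windows and in 68.7% of all windows. Its form CAGCTG was in those of PER2 and CRY2 and in 17.9% of all windows. No factor's binding was measured here, and a motif match is a description of these letters only.

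Levels are given in FPKM, fragments per kilobase of transcript scaled to the library's total, as the authors deposited them. A log2 fold is log2(ATOH8 + 1) minus log2(vector + 1), less the median of that value (-0.36) over genes averaging at least 5 FPKM, so that 0 stands for the median gene. A gene was called higher or lower at a 2-fold distance from the median gene. The vector file listed 20966 genes and the ATOH8 file 20870, and 12342 symbols averaged at least 1 FPKM. ATOH8 was listed at 0.786 FPKM (vector) and 182 FPKM (ATOH8). Folds also followed base composition across all genes: the median log2 fold was -0.70 in the decile of lowest transcript GC content and 0.63 in the highest decile. A fold corrected for GC content is therefore given beside that of each clock gene and, for the wider lists, for most genes past 2-fold and for each list's median. Of 10 markers of A549 or epithelial cells, KRT8 (2381 and 2302 FPKM, vector and ATOH8), KRT18, ALDH1A1 and AKR1B10 were the most abundant. EPCAM (1.70 and 2.23 FPKM) and KRT19 (0.219 and 0.0700 FPKM) were low. Of the 9 averaging at least 1 FPKM, 2 were called higher and none lower, against 12.8% and 9.46% of all genes. The 2 were CDH1, at 15.4 and 54.1 FPKM, and AKR1C1, at 691 and 1088 FPKM. Of 14 markers of leukocytes, endothelium, fibroblasts and normal airway or alveoli, CD14 was at 1.12 and 9.14 FPKM, the others were at most 0.332 and 0.267 FPKM or unlisted, and CD3E and SCGB1A1 were in neither file. The summed level of these 14 was 1.72 FPKM (vector) and 10.1 FPKM (ATOH8), and its part in the clock gene values was not tested.

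Across the 10 clock genes, DBP, NR1D1 and CRY2 were at least 2-fold higher in the ATOH8 library relative to the median gene, and CRY1 was at least 2-fold lower. PER1 and PER2 lay above the median gene and CLOCK and NR1D2 below it, all within 2-fold, and ARNTL and PER3 lay close to it. For 9 of the 10 the mean reached 1 FPKM, and PER3, at 0.984, was just short of it. Of these 9, 3 were called higher and 1 lower, where 12.8% of the 12342 genes were called higher and 9.46% lower. With so few genes, these counts are a description and do not set the clock genes apart from the rest. Without centring, 2 of the 9, DBP and NR1D1, were at least 2-fold higher and 1, CRY1, was lower, where all genes gave 6.24% and 19%. The median log2 fold of the 9 was 0.71, beside 0.06 over all 12342 genes, and that of all 10 was 0.42. The summed level of all 10 was 43.0 FPKM (vector) and 54.3 FPKM (ATOH8). The members' folds ran from -1.16 for CRY1 to 2.24 for DBP.

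**Figure D1:**
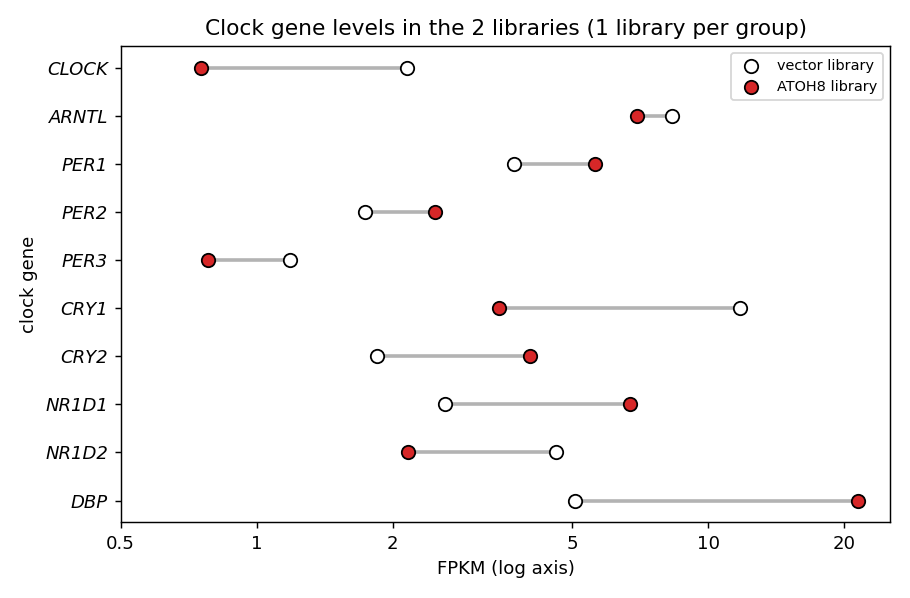
FPKM of the 10 clock genes (log axis) in the vector library (open) and the ATOH8 library (filled), 1 library per group, joined by a line for each gene. CRY1 led the vector library at 11.8 FPKM and DBP the ATOH8 library at 21.4 FPKM.

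The order of the levels differed between the libraries. In the vector library CRY1 ranked 1, ARNTL 2 and DBP 3 among the 10, and PER2 and PER3 were lowest. In the ATOH8 library DBP ranked 1, ARNTL 2 and NR1D1 3, CRY1 ranked 6, and CLOCK was lowest. With 1 library per group there is no spread by which neighbours in either order could be told apart. CRY1 in the vector library and DBP in the ATOH8 library were the 2 values above the median over the 12342 genes, which was 9.71 FPKM (vector) and 7.25 FPKM (ATOH8).

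The activators gave no called difference. ARNTL, the partner that all forms of the activating pair need unless ARNTL2 takes its place (ENSG00000133794, chromosome 11, 13276652 to 13387266, plus strand, in GRCh38), stood at 8.31 FPKM (vector) and 6.94 FPKM (ATOH8). Its log2 fold was 0.13 relative to the median gene, -0.23 with the FPKM as deposited and 0.49 after the GC correction, so its direction depended on the baseline. CLOCK, which encodes the histone-acetylating partner of ARNTL (ENSG00000134852, chromosome 4, 55427903 to 55547138, minus strand), was at 2.15 and 0.754 FPKM. The ratio of these levels was 2.85-fold in favour of the vector library, while the log2 fold on the FPKM + 1 scale was -0.84 as deposited, where a pseudocount of 1 is large beside a level of this size, and -0.49 relative to the median gene. With a pseudocount of 0.1 the log2 fold was -1.01, past the 2-fold line. CLOCK is AT-rich, at 37.2% GC, and after the GC correction its log2 fold was 0.27. Within the decile of lowest GC content, 62.4% of 1232 genes had a lower fold than CLOCK.

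NPAS2, a CLOCK paralog that can replace it in the pair, was at 20.2 and 27.7 FPKM, a log2 fold of 0.80, or 0.75 after the GC correction. Its level was 9.39 times that of CLOCK in the vector and 36.7 times in the ATOH8 library. ARNTL2, which can stand in for ARNTL, was at 5.99 and 4.45 FPKM, on the median gene. The ratio of ARNTL to ARNTL2 was 1.39 and 1.56. In both libraries, therefore, NPAS2 was the most abundant transcript of these 4 activator genes and CLOCK the least.

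The PER genes encode the subunits that bring CRY into the repressor complex, and PER1 and PER2 also respond to serum, cAMP and glucocorticoid. PER1 (ENSG00000179094, chromosome 17, 8140472 to 8156506, minus strand) was at 3.71 FPKM (vector) and 5.62 FPKM (ATOH8), a log2 fold of 0.85, or 0.34 after the GC correction. PER2 (ENSG00000132326, chromosome 2, 238244038 to 238290102, minus strand) was at 1.74 and 2.49 FPKM, with log2 folds of 0.71 and 0.50. PER3 (ENSG00000049246, chromosome 1, 7784320 to 7845177, plus strand) was at 1.19 and 0.781 FPKM, with log2 folds of 0.06 and 0.17. None of the 3 passed the 2-fold line. The PER1 to PER2 ratio was 2.14 in the vector and 2.26 in the ATOH8 library. The PER1 to PER3 ratio was 3.12 and 7.19. PER3 was the one PER gene with a lower FPKM in the ATOH8 library. The part of the promoter motifs in the PER levels was not tested.

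The CRY genes encode the proteins that inhibit CLOCK-ARNTL directly, and they lay on opposite sides of the median gene. CRY1 (ENSG00000008405, chromosome 12, 106991364 to 107093829, minus strand) was at 11.8 FPKM (vector) and 3.45 FPKM (ATOH8), a log2 fold of -1.16. CRY2 (ENSG00000121671, chromosome 11, 45847118 to 45883248, plus strand) was at 1.85 and 4.04 FPKM, a log2 fold of 1.18. CRY1 made up 86.4% of the summed CRY level in the vector and 46.1% in the ATOH8 library, and the sum itself was 13.6 and 7.48 FPKM. The ratio of CRY1 to CRY2 was 6.35 in the vector and 0.854 in the ATOH8 library, a 7.43-fold difference. In the authors' deposited table CRY1 was marked down, with a log2 ratio of -1.77, and CRY2 was not in the table. That table compares the same 2 libraries and marked 14.7% of the 12342 genes down and 5.16% up, so it is no independent check.

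The value of CRY1 after the GC correction depended on which transcript stood for the gene. Its longest annotated transcript is a retained-intron form of 3834 bases at 37.2% GC, and with it the corrected log2 fold was -0.41. Its longest coding transcript has 3267 bases at 47.7% GC, and with that the corrected log2 fold was -1.11, past the 2-fold line, where 10.1% of all genes were called higher and 4.59% lower. Among the 1232 genes of like GC content, 23.3% had a lower fold than CRY1 by the first transcript and 3.003% by the second. CRY2 had 57.0% GC by either choice, with corrected log2 folds of 0.82 and 0.84, within 2-fold. The difference between CRY2 and CRY1 in log2 fold was 2.34 without correction, 1.22 with the longest transcript and 1.95 with the longest coding transcript.

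**Figure D2:**
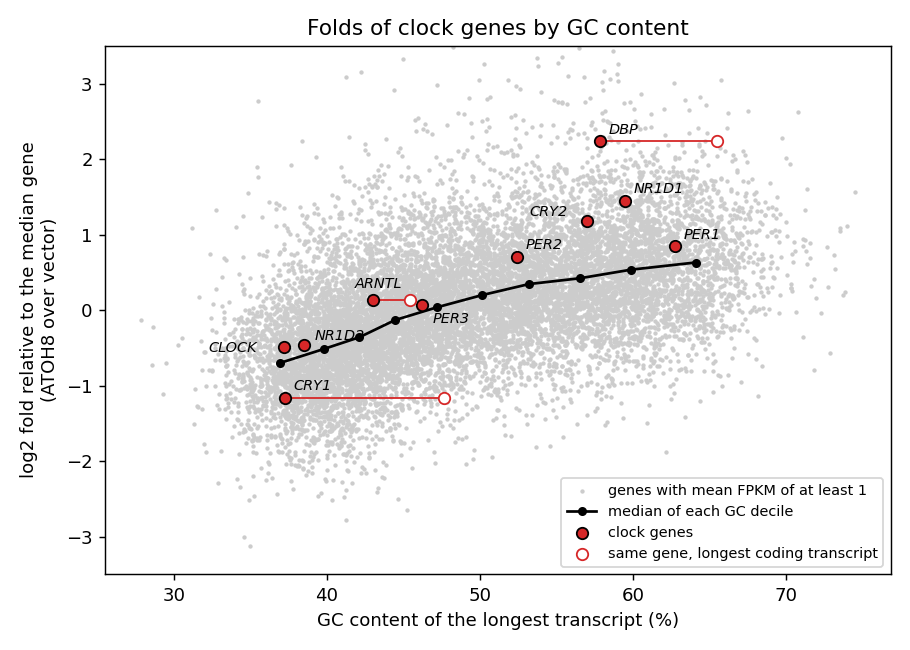
Log2 fold relative to the median gene against the GC content of the longest transcript (%) for the 10 clock genes (filled red), for 12313 genes averaging at least 1 FPKM (grey, of which 12 lie outside the axis) and as the median of each GC decile (black line). Open symbols place ARNTL, CRY1 and DBP at the GC content of their longest coding transcript. PER3, CLOCK, PER1 and NR1D2 lie near the line, DBP lies furthest above it and CRY1 lies below it.

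The REV-ERB pair also differed in direction. NR1D1 (ENSG00000126368, chromosome 17, 40092787 to 40100725, minus strand) was at 2.61 FPKM (vector) and 6.71 FPKM (ATOH8), a log2 fold of 1.45. NR1D2 (ENSG00000174738, chromosome 3, 23945260 to 23980618, plus strand) was at 4.598 and 2.16 FPKM, a log2 fold of -0.47. NR1D1 made up 36.2% of the summed REV-ERB level in the vector and 75.6% in the ATOH8 library, while the sum was 7.21 and 8.87 FPKM. After the GC correction NR1D1 stood at 1.01, on the 2-fold line, and NR1D2 at 0.23, above the median gene. The difference between NR1D1 and NR1D2 was 1.92 before and 0.78 after the correction. NR1D1 has 59.5% GC and NR1D2 38.5%. Neither gene was in the authors' deposited table.

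NR1D1 shares 263 of its 2772 exonic bases (9.49%) with THRA, the thyroid hormone receptor alpha gene on the opposite strand. No source used here states the strand setting, and reads from the shared bases cannot be told apart. The locus the authors list for NR1D1 spans 81629 bases, against 7939 annotated, and takes in MED24 and THRA. Listed loci were longer than annotated for all the clock genes but ARNTL and CRY2. What part neighbouring genes have in the clock gene values was not tested. THRA was at 15.9 and 19.4 FPKM, a log2 fold of 0.63 and 0.18 after the GC correction, lower than that of NR1D1 by 0.82 and 0.84.

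DBP, the D-box factor, had the largest fold of the 10 genes under each baseline tried. It (ENSG00000105516, chromosome 19, 48630030 to 48637438, minus strand) was at 5.08 FPKM (vector) and 21.4 FPKM (ATOH8), a 4.22-fold ratio. The log2 fold was 2.24 relative to the median gene, 1.88 as deposited, 1.85 after the GC correction and 1.67 with its longest coding transcript. It lay at percentile 98.9 of the 12342 genes and above 97.4% of the 1231 genes of like GC content. The authors' deposited table marked DBP up, with a log2 ratio of 2.08. It compares the same 2 libraries, so it is no independent check. DBP shares 661 of its 6544 exonic bases (10.1%) with SPHK2, a sphingosine kinase gene on the opposite strand. SPHK2 was at 8.20 and 5.98 FPKM, a log2 fold of -0.04, or -0.56 after the GC correction. The part of SPHK2 reads in the DBP value was not tested. The locus the authors list for DBP spans 22111 bases, against 7409 annotated, and takes in RPL18 and SPHK2. NFIL3, which competes with DBP for D-boxes as a repressor, was at 6.37 and 5.42 FPKM, so the ratio of DBP to NFIL3 was 0.797 and 3.95. TEF and HLF, the other D-box activators of the PAR bZIP family, were at 0.719 and 1.47 FPKM and at 1.35 and 1.16 FPKM, both within 2-fold of the median gene.

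**Figure D3:**
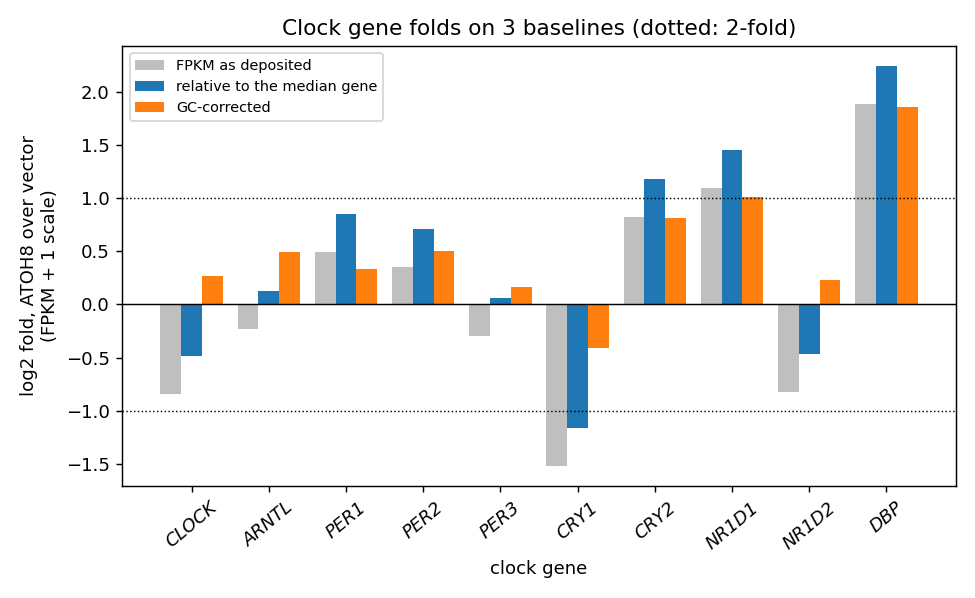
Log2 folds (ATOH8 over vector, FPKM + 1 scale) of the 10 clock genes on 3 baselines: FPKM as deposited (grey), relative to the median gene (blue) and corrected for GC content of the longest transcript (orange), with dotted lines at 2-fold. DBP and NR1D1 stay past the upper line in each, at 1.85 and 1.01 after the correction, and CLOCK, NR1D2, ARNTL and PER3 change sign between baselines.

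The 10 folds followed GC content closely. Across the 10 genes the Spearman correlation of log2 fold with the GC content of the longest transcript was 0.89 and the Pearson correlation 0.88. With the longest coding transcript, which differs for ARNTL, CRY1 and DBP, the Spearman correlation was 0.83. Over 12313 genes the correlation with the longest transcript was 0.55. Corrected folds of the 10 genes still followed it, with a Spearman correlation of 0.67. These are descriptions across genes that share the same 2 libraries. The 3 genes called higher had 57.0% to 59.5% GC, and in the GC deciles that hold them, 21.0% (CRY2 and DBP) and 26.5% (NR1D1) of all genes were called higher. CRY1, CLOCK and NR1D2 were in the lowest decile, where 32.4% of genes were called lower. After the correction 2 of the 9 genes, DBP and NR1D1, were called higher and none lower, against 9.88% and 4.75% of all genes. Of the 9, 8 then lay above 0, with a median of 0.49 beside 0.09 over all genes. The level of a gene moved with the calls as well: among 4093 genes averaging from 1 to under 5 FPKM, which hold 6 of the 9, 15.4% were called higher and 4.79% lower.

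The wider machinery of the clock was read from lists drawn up by function, with earlier results of these data known. Of 82 symbols in 6 lists, 71 averaged at least 1 FPKM, of which 9 (12.7%) were called higher and 8 (11.3%) lower, close to the 12.8% and 9.46% of all genes. Of the 7 other clock transcription factors measured, 1 was called higher and none lower, against 12.8% and 9.46% of all genes. Of the 7, 6 lay above the median gene. Their median was 0.72, or 0.57 after the GC correction, beside 0.06 and 0.09 over all genes. The gene called higher was BHLHE40, an E-box repressor also known as DEC1, at 28.4 and 52.6 FPKM. Its log2 fold was 1.23, or 1.04 after the GC correction. Without centring, 4 of the 7 lay above 0 and 3 below it, none of them by 2-fold, where the median log2 fold over all genes was -0.30. RORA, which activates ARNTL where the REV-ERBs repress it, was at 1.20 and 1.83 FPKM, a log2 fold of 0.72 and 1.53 after the correction. BHLHE41 was listed only in the ATOH8 file, CIART, a repressor of CLOCK-ARNTL, only in the vector file at 0.181 FPKM, and RORB in neither.

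**Figure D4:**
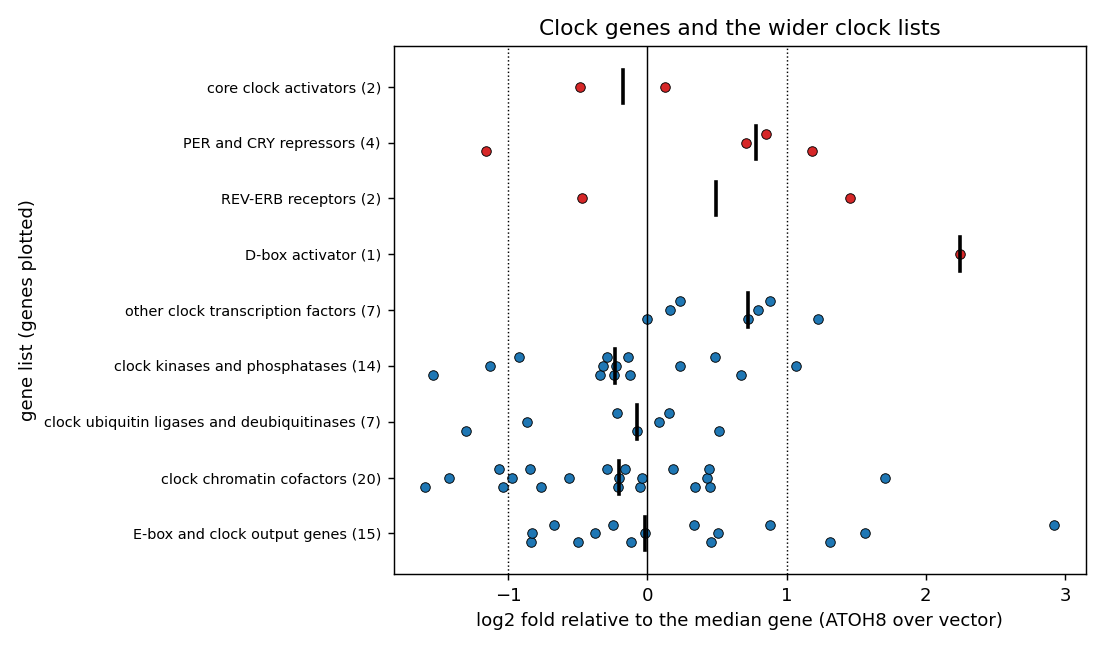
Log2 folds relative to the median gene of the clock genes (red) and of genes of the wider clock lists (blue) averaging at least 1 FPKM, 1 point per gene, without the stimulus-responsive list, with the list median as a black bar and dotted lines at 2-fold. The median is 0.72 for the other clock transcription factors and between -0.23 and -0.02 for the other 4 lists in blue.

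Genes whose proteins modify the repressors had no lean that held on each baseline. Of 14 kinase and phosphatase genes, 1 was called higher and 2 lower, against 12.8% and 9.46% of all genes, with a median of -0.23. Relative to the median gene 4 lay above 0 and 10 below it, and after the GC correction 7 lay on each side, with a median of 0.10. The higher one was CSNK1D, which encodes the casein kinase 1 delta that phosphorylates PER for degradation, at 51.0 and 84.1 FPKM, a log2 fold of 1.07 and 0.69 after the GC correction. CSNK1E was at 21.5 and 19.6 FPKM, within 2-fold. The lower ones were the protein phosphatase 1 genes PPP1CB, at 53.6 and 13.7 FPKM (-1.54), and PPP1CC, at 129 and 45.4 FPKM (-1.13), and both came within 2-fold after the correction, where CSNK2A2 reached 1.03. The most abundant of the rest, PPP1CA, CSNK2B, CSNK2A1 and CSNK1A1, had log2 folds of -0.24, 0.49, -0.34 and -0.32.

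The 7 measured ubiquitin ligase and deubiquitinase genes had a median of -0.07, or 0.01 after the GC correction. Of the 7, none was called higher and 1, a gene not named here, lower, against 12.8% and 9.46% of all genes. FBXL21 was listed only in the vector file, at 1.56 FPKM, and the authors' deposited table marks it down against a value of 0. USP7, which can stabilise CRY1, was at 39.9 and 16.5 FPKM (-0.86), and STUB1, HUWE1 and FBXW11 had log2 folds of 0.09, 0.52 and -0.22.

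Of 20 chromatin cofactor genes, 1 was called higher and 4 lower, against 12.8% and 9.46% of all genes. Their median was -0.21, or -0.15 after the GC correction. NCOR1, a corepressor through which REV-ERBs recruit HDAC3, was at 40.4 and 14.8 FPKM, a log2 fold of -1.03 and -0.86 after the GC correction. HDAC3 itself was at 27.4 and 27.01 FPKM. SFPQ, a splicing factor that binds PER complexes, was at 140 and 40.04 FPKM (-1.43), and its partner NONO at 192 and 201 FPKM (0.43). DHX9, an RNA helicase found with PER, was at 104 and 26.2 FPKM (-1.60), and TIMELESS, better known in replication forks, at 28.7 and 10.1 FPKM (-1.06). SFPQ, DHX9 and TIMELESS stayed past the 2-fold line after the correction, at -1.47, -1.32 and -1.24, where 4.75% of all genes were called lower. DDX5 and CHD4, the most abundant of the remaining genes with NONO and HDAC3, had log2 folds of -0.97 and 0.18.

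Output genes were spread to both sides. Over all genes, 12.8% were called higher and 9.46% lower. Of 15 measured output genes, 3 were called higher and none lower, with a median of -0.02, or 0.40 after the GC correction. They were CDKN1A, the CDK inhibitor gene that REV-ERB alpha can repress, at 32.0 and 194 FPKM (2.92), TSC22D3, a glucocorticoid-induced gene with a rhythmic level in many tissues, at 7.53 and 18.7 FPKM (1.56), and the lipid receptor gene PPARA, at 1.04 and 2.94 FPKM (1.31). All 3 stayed past the 2-fold line after the correction, at 2.52, 1.35 and 1.33, where 9.88% of all genes were called higher. The most abundant others, TYMS, CCND1, NAMPT and INSIG1, had log2 folds of -0.67, -0.38, -0.84 and 0.33, or -0.76, -0.49, -0.05 and 0.45 after the correction. Without centring, 2 were at least 2-fold higher and 3, NAMPT, TYMS and LEO1, lower, against 6.24% and 19% of all genes.

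Genes that serum, cAMP or glucocorticoid induce, as they do PER1 and PER2, gave no common direction. Of 10 measured, 4 were called higher and 1 lower, against 12.8% and 9.46% of all genes. Of the 10, 5 lay on each side of the median gene, with a median of 0.42, or 0.28 after the GC correction. JUNB was at 30.2 and 91.3 FPKM (1.92), FOS at 3.08 and 6.005 FPKM (1.14) and DUSP1 at 86.5 and 146 FPKM (1.11), beside TSC22D3 above. CREM, which encodes the cAMP-induced repressor ICER among its products, was at 35.5 and 10.9 FPKM (-1.26). SIK1, NR4A1, SGK1 and FKBP5 had log2 folds of 0.97, -0.13, -0.79 and -0.50. After the correction JUNB and TSC22D3 alone of the 10 were past the 2-fold line, where 9.88% of all genes were called higher. The part of these stimuli in the PER1 and PER2 values was not tested.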

How the data were processed

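RNA from 2 cultures of A549 cells was sequenced, and for each library the authors deposited a table of FPKM, per the file headers. Cufflinks 2.2.1, HISAT2 and CASAVA, and the hg38 (GRCh38) build, stand in the submitters' processing notes, without their roles. No annotation release, strand setting or depth is given in the sources used here. Ratios between the libraries of 1314 genes under 0.1 FPKM in both shared no common step (the most frequent, to 3 decimals, occurred 5 times), so depth could not be recovered and no counting interval is given. The authors' deposited table of their own comparison holds p-values and q-values (up to 0.0500 for its 2747 genes) and a log2 ratio, an extreme number where a library is at 0. Its other 2 columns of per-library values were not used, as their names match no sample.

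Both tables were joined on the gene identifier, with rows of 1 symbol summed (each clock gene had 1 row). A pseudocount of 1, a minimum mean of 1 FPKM and centring on genes averaging at least 5 FPKM were used. For the GC correction a lowess curve (fraction 0.3, statsmodels 0.14.6) of log2 fold on GC content was subtracted. GC content was that of the longest transcript in GENCODE 29, which also gave positions. The correction was also run on simulated data, with changes placed without regard to GC content. Such data cannot show whether it removes real differences that follow GC content. A fold rule replaced a test, as 1 library per group has no spread. Differences in cell makeup and in RNA per cell cannot be told apart in bulk RNA. The members and lists were chosen with earlier results of these data known. Named genes were all clock members and ATOH8 and, of each wider list, those at least 2-fold from the median gene and the 4 most abundant others. A few further list members, such as TEF, HLF and CSNK1E, were named after their values were seen, and some genes the rule names are not given here. Alternatives were other pseudocounts, filters, scalings, GC corrections and rows.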

Additional observations from a re-analysis of the deposited data

How the results depend on the processing

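DBP, NR1D1, CRY2, PER1 and PER2 lay above 0, and CRY1 below it, under each alternative that kept the gene. The log2 folds ran from 1.67 to 2.44 for DBP, 0.90 to 1.71 for NR1D1, 0.68 to 1.47 for CRY2 and -1.52 to -0.41 for CRY1. With a pseudocount of 0.1, 2 clock genes were at least 2-fold lower (1670 of 12342 genes lower and 1972 higher), the median was 0.88 and PER3 stood at -0.16. With a pseudocount of 5, 1 was higher and 0 lower (636 and 524 of 12342 genes), and the median was 0.43. Without a filter the median was 0.42 over 10 genes. With a minimum mean of 5 FPKM, which left 3 genes, 1 was higher and 1 lower (947 and 972 of 8249 genes), and the median was 0.13. With the FPKM as deposited the median was 0.35, ARNTL stood at -0.23 and PER3 at -0.30, and 75.2% of all calls were lower ones, against 42.5% relative to the median gene. Rescaled to 1000000 over nuclear genes, without centring, the median was 0.63, ARNTL -0.015 and PER3 -0.25, and lower ones were 57.5% of calls. With the GC correction 0 were lower, the median was 0.49, CLOCK stood at 0.27 and NR1D2 at 0.23, and lower ones were 32.5% of calls. With the coding transcript, an alternative chosen after seeing the data, the median was 0.34, CLOCK stood at 0.29 and NR1D2 at 0.25. Pseudocounts act on low genes and the stricter filter removes them by construction. For the other shifts the cause was not tested. No paired analysis was possible because there is 1 library per group.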
